A study of Mus musculus with 12 samples.

Results

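The genes described here are 33 markers of blood and lymphatic endothelium, the cells that line blood vessels and lymphatic vessels, in the dermis of newborn mice. They were listed by name, as known vascular genes, by a rule that used no measured value, although earlier results of these data were known when the list was made. Each was measured by the probe sets that the array annotation pairs with its symbol alone, 55 of the 45037 probe sets tested, and the probe sets of a gene were averaged, which made the members 33 of 18193 genes. All 33 were measured: 18 by 1 probe set and 15 by several. The arrays held RNA of whole dermal cell suspensions, so a lower value of a gene can mean fewer endothelial cells or less RNA per cell, and these cannot be told apart.

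There were 12 arrays in 4 groups of 3, tail and back dermis at each of the ages P1 and P5 by their labels, from C57Bl6/CBA F1 mice 1 day (P1) or 5 days (P5) after birth that carried no named allele or treatment. Before the dermis was peeled off and digested to single cells, tail skin was loosened in EDTA and back skin in dispase with trypsin, so body site and solution cannot be told apart. The protocol is written for P1 and is repeated on the labels of the P5 arrays. RNA came from triplicate mice and each array was taken as 1 mouse, which the labels do not state outright, so p-values measure the spread between these arrays. Each deposited value is on a log2 scale and stands relative to the median of that probe set over the 12 arrays. It therefore gives differences between arrays and no level, so genes cannot be ranked by abundance and no gene can be called absent. A gene was called, and is said to have risen or fallen, where limma's adjusted p over all genes was under 0.05.

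The array labels need care before any direction is read. All 10 measured posterior Hox genes, which mark the tail end of the body axis, had lower means in the arrays labelled tail at both ages. Of these, 7 were called lower at P1 and 7 at P5, with list means of -0.82 against 0.77 at P1 and -0.73 against 0.75 at P5. Of 7 measured adipocyte genes, all 7 rose in P1 tail against P1 back (mean 1.53 against -1.33). That direction is opposite to the study's account of fat genes. Both patterns go against the site labels. The groups were not exchanged, and every direction below is that of the array labels. The size of a site difference and the sets of arrays it compares do not depend on which set is the tail.

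Endothelial cells are held together by vascular endothelial cadherin (Cdh5), Pecam1 and the tight junction protein Cldn5, and they read growth factors through receptor kinases: Kdr and Flt1 for Vegfa, Flt4 for Vegfc in lymphatic vessels, and Tek, with its partner Tie1, for the angiopoietins. Their identity rests on transcription factors of the ETS family (Erg, Fli1) and the SOX family (Sox7, Sox17), while Prox1 specifies lymphatic endothelium. Newborn skin still extends its capillary and lymphatic beds as it grows. Several members are not confined to endothelium: Pdpn is also made by fibroblasts and keratinocytes, Lyve1 by some dermal macrophages, Vwf by the platelet lineage and Fli1 by blood cells.

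The reference promoter table (RefSeq, GRCm38.p6) held 21 promoters of 16 members, and the 250 bases before each start were searched on both strands. Of these windows 10 lay wholly before the gene, and the others lay partly or wholly within it. AGGAAG, a form of the ETS site, was in 9 of the 21 promoters (42.9%), against 29.5% of all 32851 promoters. Its genes were Egfl7, Emcn, Eng, Erg, Flt1, Rasip1, Robo4 and Tie1. Other forms of the ETS site were not searched. AACAAT, a SOX core, was in 4 of the 21 (19.0%, against 9.42% of all), GGGCGG in 8 (38.1% against 32.7%) and TATAAA in 3 (14.3% against 12.4%). The motifs are matches of letters and no binding was measured. The sequences of 4 members were chosen to show promoters with and without AGGAAG. The receptor Tie1 and the surface sialomucin Emcn hold it, and the lymphatic receptor Flt4 and the tight junction gene Cldn5 do not. They are given 5′ to 3′ on the strand of the gene, up to the base before the gene begins, and capitals mark AGGAAG or its reverse complement. For Tie1 this is chr4:118489850-118490099 on the minus strand, for Emcn chr3:137340828-137341061, for Flt4 chr11:49609429-49609678 and for Cldn5 chr16:18776597-18776846, the last 3 on the plus strand.
Tie1: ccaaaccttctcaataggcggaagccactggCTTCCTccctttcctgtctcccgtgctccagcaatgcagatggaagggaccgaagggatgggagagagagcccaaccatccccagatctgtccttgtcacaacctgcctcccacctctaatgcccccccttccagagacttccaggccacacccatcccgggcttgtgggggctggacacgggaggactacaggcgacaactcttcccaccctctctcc
Emcn: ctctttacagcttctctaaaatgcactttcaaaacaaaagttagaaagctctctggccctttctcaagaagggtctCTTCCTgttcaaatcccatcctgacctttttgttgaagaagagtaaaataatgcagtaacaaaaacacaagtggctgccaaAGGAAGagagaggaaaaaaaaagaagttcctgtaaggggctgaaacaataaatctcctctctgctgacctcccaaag
Flt4: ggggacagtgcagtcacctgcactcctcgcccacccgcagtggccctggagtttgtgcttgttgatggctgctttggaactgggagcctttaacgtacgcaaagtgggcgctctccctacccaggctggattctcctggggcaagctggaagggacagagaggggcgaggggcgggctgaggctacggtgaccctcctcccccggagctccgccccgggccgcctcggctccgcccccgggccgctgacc
Cldn5: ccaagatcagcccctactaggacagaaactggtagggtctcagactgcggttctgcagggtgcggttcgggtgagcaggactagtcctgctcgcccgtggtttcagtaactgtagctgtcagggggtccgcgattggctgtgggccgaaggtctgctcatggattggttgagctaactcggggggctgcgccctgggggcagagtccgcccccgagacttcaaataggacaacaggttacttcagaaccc
In Tie1 the match begins 219 bases before the start site. In Emcn the matches begin 174 and 93 bases before its start site, chr3:137341078. That site lies inside the gene, past the end of the printed sequence.

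The endothelial genes moved together from array to array, more than from group to group. The mean over the 33 members was 0.39, -0.20 and -0.02 in P1 tail arrays 4, 5 and 6, and 0.14, -0.08 and -0.04 in P1 back arrays 1, 5 and 6. At P5 it was 0.32, -0.28 and -0.13 in tail arrays 2, 3 and 4, and 0.01, 0.05 and 0.04 in back arrays 1, 2 and 3. Array 4 of the P1 tail group and array 2 of the P5 tail group were thus the highest of all, each in a group whose other arrays were at or below 0, and the P5 back arrays were the most alike. The group means were 0.06 ± 0.30 in P1 tail, 0.01 ± 0.12 in P1 back, -0.03 ± 0.31 in P5 tail and 0.03 ± 0.02 in P5 back (SD, n = 3), and the ranges of tail and back overlapped at both ages.

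**Figure D1:**
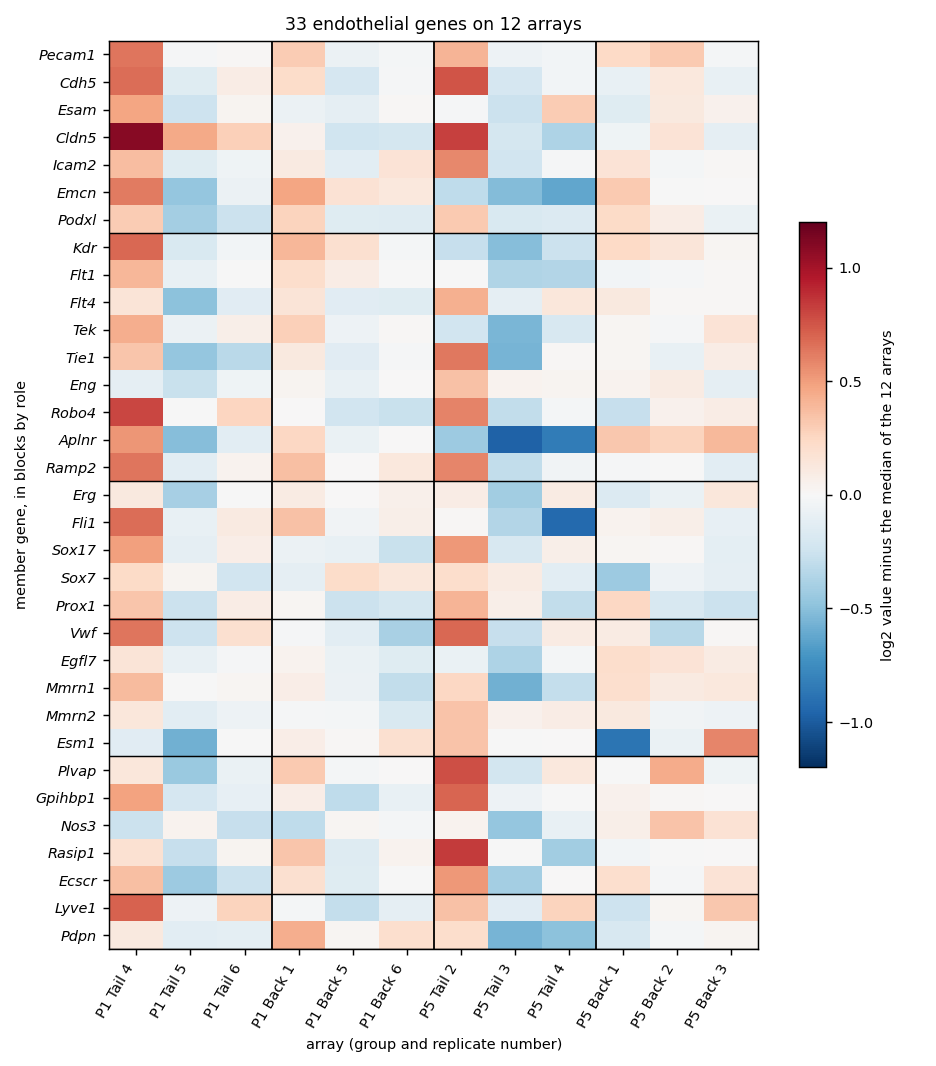
Log2 values of the 33 members (vertical axis, in blocks by role) on the 12 arrays (horizontal axis), each relative to the median of the 12 arrays, in colour from blue (low) to red (high). The columns of P1 tail array 4 and P5 tail array 2 are red in most blocks, and the darkest blue cells are Aplnr in P5 tail array 3 (-0.97) and Fli1 in P5 tail array 4 (-0.94).

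Within the P1 tail group, array 4 held the highest value of the group for 30 of the 33 members (90.9%), against 38.3% of all genes. Array 2 did so for 28 members (84.8%) in the P5 tail group, against 44.9% of all genes, and array 1 for 28 (84.8%) in the P1 back group, against 34.3%. In the P5 back group the highest values were spread over the arrays, with 13, 10 and 10 members. Array 2 of the P5 tail group also had the widest spread of values over all genes, with an SD of 0.44 where the other arrays had 0.212 to 0.333. That SD is over the genes of an array and includes any difference between the groups.

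As a description over the same 12 arrays, with no test, the deviations of the members from their group means had a median correlation of 0.715 over 528 pairs (-0.437 to 0.985). With the mean of the other members, 19 of 33 reached 0.8, and 6.05% of all genes did, the median of all genes being 0.074. Ramp2, a partner of the adrenomedullin receptor, followed the others most closely (0.987), ahead of Cdh5 (0.978), Gpihbp1 (0.971), which carries lipoprotein lipase across capillaries, and Flt1 (0.960). The least alike were Sox7 (0.300), Esm1 (0.277), a proteoglycan of sprouting tip cells, and Nos3 (0.047), the endothelial nitric oxide synthase. The 15 other genes whose deviations were most like the mean of the members were led by Rras and Fxyd5 (both 0.989) and included Thbd and Cd93 (both 0.967), an anticoagulant receptor and a surface lectin of endothelium. Other members of that list were Dpep1, Cul7, Bok, Serp1, Slc9a3r2, Dusp3, Arrb1, Srpr, Cd81, Zfp652 and Evc2.

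Several lists of markers of other cells also peaked in these arrays. The 12 pericyte and smooth muscle genes, which mark the cells around vessels, also had their highest mean of the group in P1 tail array 4 (0.12, against -0.10 and -0.04) and in P5 tail array 2 (0.28, against -0.14 and -0.08). The 12 macrophage genes did the same with 0.35, 0.25 and 0.17 at P1 and 0.02, -0.64 and -0.27 at P5. The means of 7 platelet genes lay between -0.28 and 0.08 and those of 5 measured erythroid genes between -0.16 and 0.22. The skeletal muscle list (1.92, 0.93 and 0.57 in P1 tail, -0.34, -0.84 and -0.42 in P5 tail) and the adipocyte list (1.81, 1.19 and 1.59, then 0.47, 0.02 and 0.35) were also highest of their groups in these arrays, and the keratinocyte list was lowest in P1 tail array 4 (-0.71). Their part in the array pattern of the members was not tested.

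**Figure D2:**
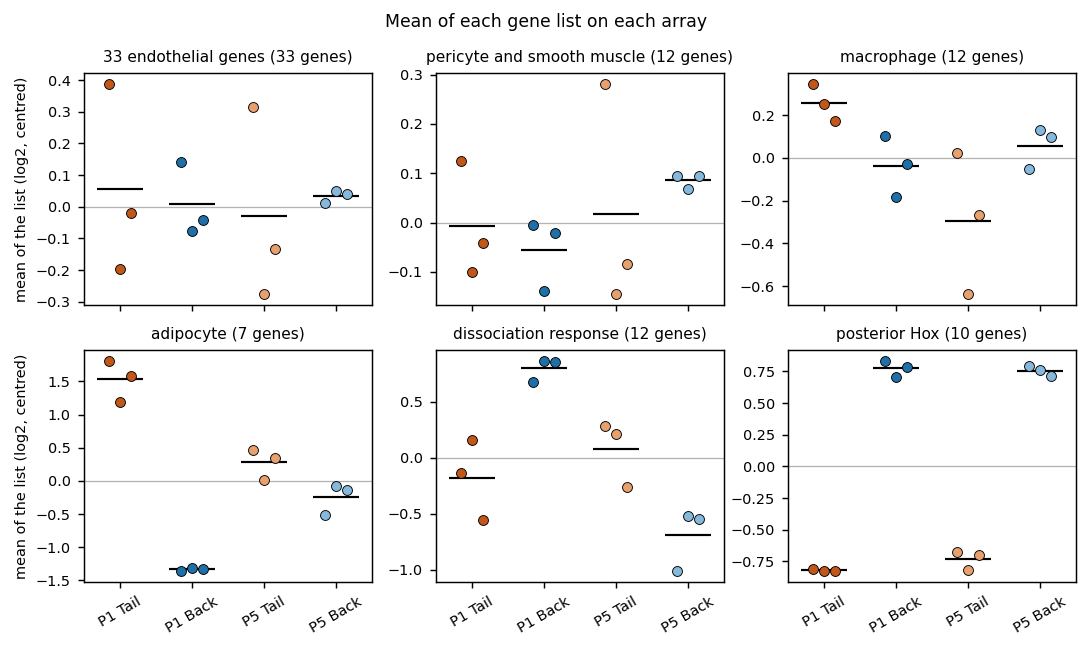
Mean log2 value (vertical axis, relative to the median of the 12 arrays, each panel on its own scale) of 6 gene lists on each array (points) with the group mean (bar), by group. The endothelial means overlap between all groups (-0.28 to 0.39), whereas the posterior Hox and adipocyte means separate the labelled sites at both ages, the adipocyte means more widely at P1. The dissociation response means also separate the sites at both ages, with tail below back at P1 and above it at P5, and the macrophage means do so at P1 alone.

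At P1, no difference between the arrays labelled tail and back passed the test in the members. Of the 33 members 0 were called with limma, against 3.97% of all genes, and 3 (Cldn5, Robo4 and Lyve1) had an unadjusted p under 0.05. The median difference was 0.01, with -0.04 over all genes. For 31 of 33 members the 95% interval of the difference lay within 2-fold either way, the exceptions being Cldn5 and Robo4. The arrays of the groups did not overlap for 2 members (6.06%, against 30.2% of all genes): Cldn5, all tail above, and Esm1, all tail below.

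Among the 7 junction and surface genes, Cldn5 had the largest difference of all members. It read 1.09, 0.46 and 0.28 in P1 tail and 0.05, -0.24 and -0.21 in P1 back, so that every tail array lay above every back array. The difference was 0.74 ± 0.27 (SE), or 1.67-fold (adjusted p = 0.203, limma). Pecam1 read 0.64, -0.01 and 0.01 against 0.30, -0.07 and -0.02, a difference of 0.14 (95% interval -0.27 to 0.55). Cdh5 read 0.67, -0.15 and 0.09 against 0.22, -0.20 and -0.01, a difference of 0.20 (-0.32 to 0.73). In both of these genes the groups overlapped, and tail array 4 was the highest of the 6. Emcn, a sialomucin of capillaries and veins, read 0.62, -0.46 and -0.07 against 0.47, 0.18 and 0.13, a difference of -0.23 (-0.71 to 0.25). The tail arrays of Emcn lay on both sides of the back arrays. Esam and Icam2, both adhesion proteins of endothelial contacts, and Podxl, a sialomucin of the luminal face, differed by 0.14, 0.01 and -0.10.

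Of the 9 receptors and partners none was called at P1. Kdr, the main Vegfa receptor, read 0.69, -0.18 and -0.03 in P1 tail and 0.40, 0.19 and -0.02 in P1 back, a difference of -0.03 (-0.45 to 0.39). The groups overlapped over most of their range. Robo4, a guidance receptor that stabilises vessels, had the largest difference of the group, 0.52 ± 0.23 (SE; adjusted p = 0.322, limma), with 0.81, 0.00 and 0.26 against 0.00, -0.23 and -0.27. Flt4 read 0.15, -0.49 and -0.13 against 0.16, -0.14 and -0.15, a difference of -0.11 (-0.48 to 0.25). The remaining receptors, Flt1, Tek, Tie1, Eng, Aplnr and Ramp2, lay between -0.14 and 0.06.

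The transcription factors and secreted proteins gave the same picture at P1. Prox1 read 0.33, -0.26 and 0.09 in P1 tail and 0.02, -0.26 and -0.21 in P1 back, a difference of 0.20 (-0.23 to 0.63). Sox17, a factor of arterial endothelium, differed by 0.30, and Erg, Fli1 and Sox7 lay between -0.15 and 0.10. Vwf, the multimeric clotting protein stored in endothelial granules, read 0.64, -0.25 and 0.19 against -0.01, -0.13 and -0.39, a difference of 0.37 (-0.17 to 0.91). Its groups overlapped through tail array 5. Egfl7, Mmrn1 and Mmrn2, matrix proteins laid down by endothelium, differed by 0.08, 0.23 and 0.06, and Esm1 by -0.33 (-0.94 to 0.27).

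The lymphatic surface proteins went in opposite directions at P1 without a call. Lyve1, a hyaluronan receptor, read 0.71, -0.06 and 0.27 in P1 tail and -0.02, -0.28 and -0.11 in P1 back, a difference of 0.44 ± 0.20 (SE; adjusted p = 0.328, limma). Tail array 5 lay between the back arrays. Pdpn, a mucin-like protein of lymphatic endothelium, read 0.11, -0.12 and -0.12 against 0.44, 0.02 and 0.20, a difference of -0.26 (-0.66 to 0.13). The capillary genes Plvap, Gpihbp1, Nos3, Rasip1 and Ecscr differed by -0.23 to 0.17. When arrays were weighted by their quality, Cldn5, Robo4 and Lyve1 were called higher in tail, in a fit that called 20.1% of all genes.

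**Figure D3:**
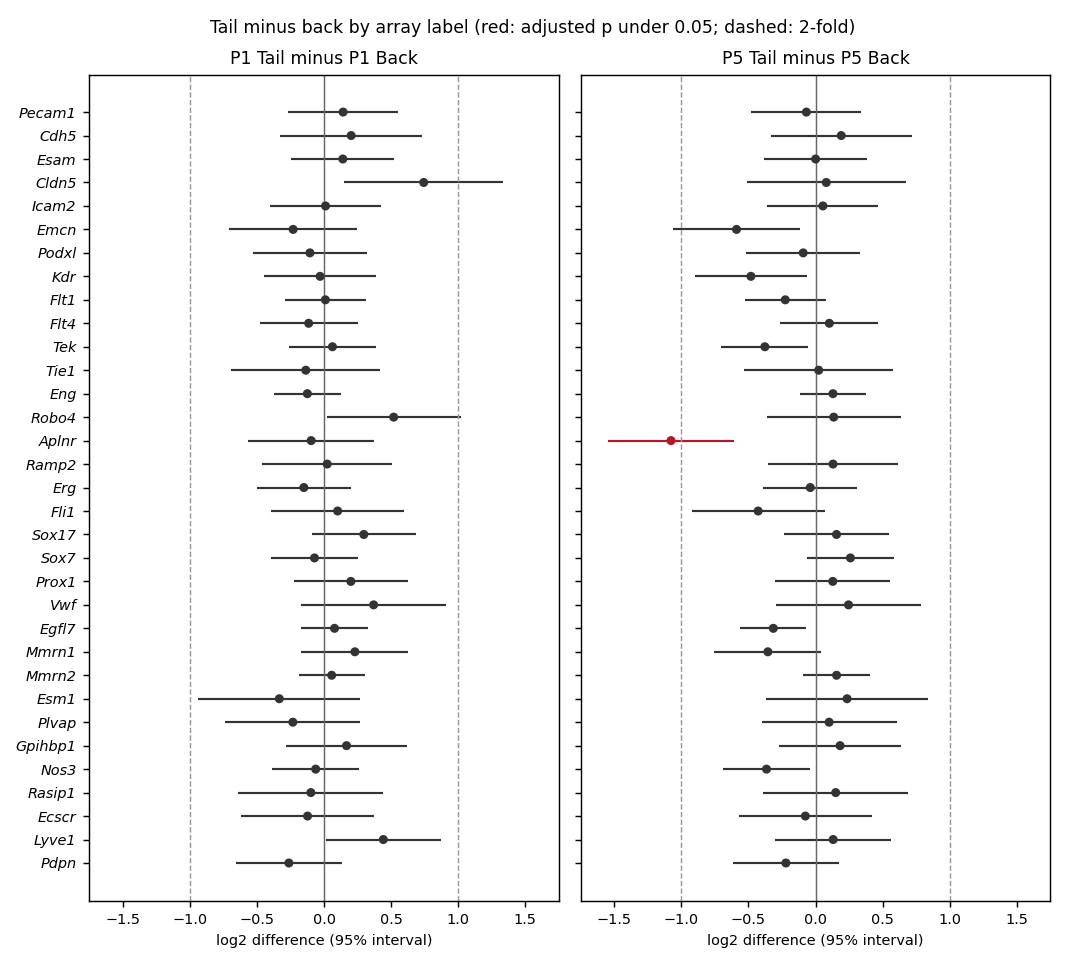
Difference of the arrays labelled tail from those labelled back (horizontal axis, log2 scale, point with 95% interval from limma) for each member (vertical axis) at P1 (left) and P5 (right), with dashed lines at 2-fold. The only red interval, which marks an adjusted p under 0.05, is that of Aplnr at P5 (-1.08), and the intervals of 31 of 33 members lie within 2-fold in each panel.

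At P5, Aplnr, the receptor for the peptide apelin, which guides venous and capillary growth, was lower in the arrays labelled tail, and it was the only member called. This was 1 of 33 members (3.03%), against 6.91% of all genes in either direction and 2.61% lower, so the share of members called was near the background. Aplnr read -0.44, -0.97 and -0.84 in P5 tail, against 0.33, 0.27 and 0.39 in back. Every tail array lay below every back array, including tail array 2, in which most other members were high. The difference was -1.08 ± 0.22 (SE; 95% interval -1.55 to -0.61; adjusted p = 0.0092, limma), so that the tail value was 0.474 of the back value. Both probe sets of the gene were called (-0.90 and -1.25, adjusted p = 0.0322 and 0.0162 over all probe sets in limma, which called 4.76% of them). At P1 the same gene read 0.53, -0.51 and -0.13 in tail and 0.25, -0.08 and 0.01 in back, overlapping throughout, with a difference of -0.10 (-0.56 to 0.37).

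Of 15 alternative analyses, 14 called Aplnr lower at P5, with values from -1.25 to -0.90 and adjusted p from 0.00047 to 0.040 in limma. The exception among the 15 was the methods' t-test, which gave an adjusted p of 0.153 and called none of the 33 members. It also kept 0 of 46 limma calls of the other endothelial genes and ligands described below. Its share of all genes called is not given, so its counts of 0, here and below, cannot be read as a result about the members. The ligand Apln read 1.44, 0.53 and 0.02 in P5 tail, against -0.02, -0.53 and -0.24 in back, a difference of 0.93 ± 0.29 (SE; adjusted p = 0.083, limma) that was not called. All tail arrays of Apln lay above all back arrays, with array 2 the highest.

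**Figure D4:**
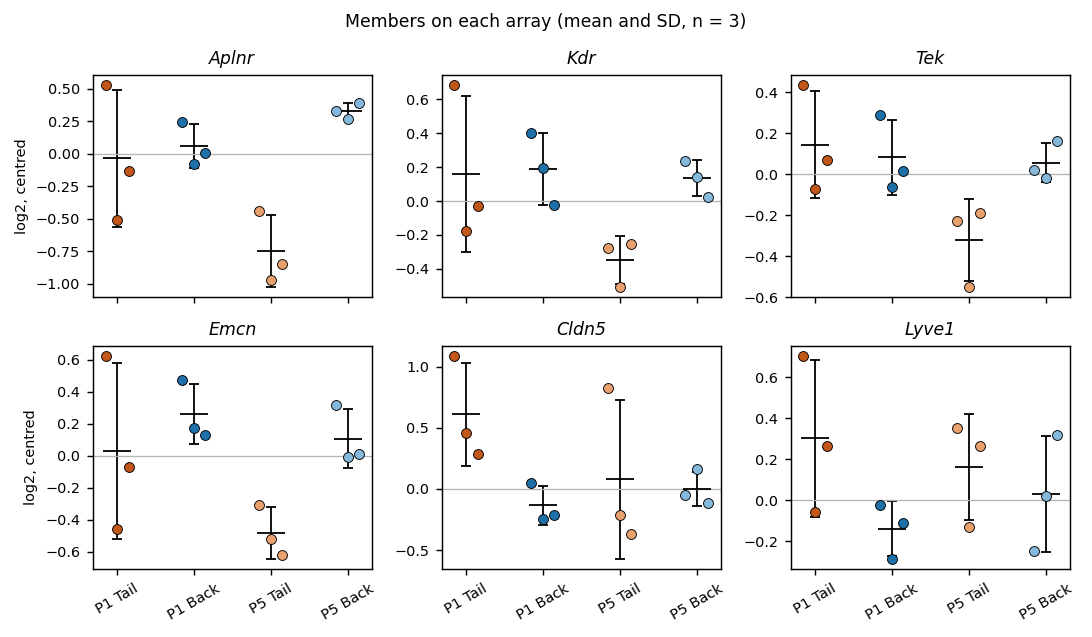
Log2 values (vertical axis, relative to the median of the 12 arrays, each panel on its own scale) of 6 members on each array (points) with the mean and SD of the group (n = 3). Aplnr, Kdr, Tek and Emcn have all P5 tail arrays below all P5 back arrays, Cldn5 has all P1 tail arrays above all P1 back arrays, and the groups of Lyve1 overlap.

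Other members also lay lower in the arrays labelled P5 tail without passing the test. The groups did not overlap for 6 members (18.2%, against 20.6% of all genes), all with tail below back, and these same 6 (Aplnr, Kdr, Tek, Emcn, Egfl7 and Nos3) had an unadjusted p under 0.05. Kdr read -0.28, -0.51 and -0.25 in tail and 0.23, 0.14 and 0.02 in back, a difference of -0.48 ± 0.19 (SE; adjusted p = 0.176, limma). Tek read -0.23, -0.55 and -0.19 against 0.02, -0.02 and 0.16, a difference of -0.38 (adjusted p = 0.172). Emcn read -0.31, -0.52 and -0.62 against 0.32, -0.01 and 0.01, a difference of -0.59 ± 0.22 (adjusted p = 0.146). In Kdr and Tek the highest tail array was 4 and not 2, and in Emcn array 2 was the highest of its group yet below every back array. Egfl7 and Nos3 differed by -0.31 and -0.37, and Fli1, Mmrn1 and Flt1 by -0.43, -0.36 and -0.23, with overlapping arrays in these last genes.

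The pan-endothelial and lymphatic genes were not called at P5 and their groups overlapped. Pecam1 read 0.41, -0.06 and -0.04 in P5 tail, against 0.23, 0.31 and -0.03 in back, a difference of -0.07 (-0.48 to 0.34). Cdh5 read 0.76, -0.20 and -0.03 against -0.09, 0.12 and -0.09, a difference of 0.19 (-0.34 to 0.72). Vwf read 0.69, -0.28 and 0.10 against 0.09, -0.33 and 0.01, a difference of 0.25 (-0.29 to 0.78). In all of these tail array 2 was the highest of the 6 and the groups overlapped. Flt4 read 0.43, -0.11 and 0.13 against 0.11, 0.02 and 0.02, a difference of 0.10 (-0.26 to 0.47). Prox1 read 0.41, 0.07 and -0.29 against 0.25, -0.19 and -0.25, a difference of 0.13 (-0.30 to 0.55). The lymphatic genes Flt4 and Prox1 thus overlapped between the sites. Lyve1 read 0.35, -0.13 and 0.27 against -0.25, 0.02 and 0.32 (difference 0.13), and Pdpn 0.21, -0.56 and -0.49 against -0.19, -0.02 and 0.04 (difference -0.22, -0.62 to 0.18). The other members, from the junction gene Esam to the capillary gene Plvap, differed by -0.09 to 0.26.

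The median member difference at P5 was 0.05, with -0.02 over all genes. It moved both ways when single arrays were left out, from -0.18 to 0.18. Without tail array 2 the median was -0.18, with 27 of 33 members below 0. Aplnr and Mmrn1 were then called lower, in a fit that called 7.11% of all genes. Leaving out P1 tail array 4 and P5 tail array 2 together, an alternative chosen after seeing the data, called 7 members lower in the P5 tail arrays (Aplnr, Emcn, Kdr, Flt1, Fli1, Mmrn1 and Pdpn), in a fit that called 8.15% of all genes. Their differences were then -1.23, -0.68, -0.52, -0.34, -0.65, -0.58 and -0.47, and that of Pecam1 was -0.22 (adjusted p = 0.404, limma). The macrophage list was lower in the same P5 tail arrays (mean -0.30 against 0.06, 2 of 12 genes called lower), the keratinocyte list was higher (0.32 against -0.46, 4 of 9 called higher), and the dissociation response list, genes that cells switch on while tissue is digested, was higher (0.08 against -0.69, 5 of 12). Their part in the member differences was not tested.

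From P1 to P5 no member passed the test in the arrays labelled back. Of 33 members 0 were called with limma, against 4.25% of all genes, and 0 had an unadjusted p under 0.05. The methods' t-test called 0 as well. The intervals of all 33 lay within 2-fold, and the median difference, P5 minus P1, was 0.06, with 0.01 over all genes. The arrays of the ages did not overlap for 5 members (15.2%, against 28% of all genes): Aplnr (0.27), Egfl7 (0.22), Mmrn1 (0.24) and Nos3 (0.30) were above at P5 and Ramp2 (-0.21) below. The dissociation response list fell over the same interval, with 10 of 12 genes called and means of 0.80 at P1 and -0.69 at P5.

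In the arrays labelled tail 0 of 33 members were called between the ages with limma, against 5.3% of all genes, and 7 had an unadjusted p under 0.05. The methods' t-test called 0. The age comparisons use the same arrays as the site comparisons, so they are not separate evidence. Among the lower differences, Aplnr differed by -0.71 ± 0.22 (SE; adjusted p = 0.081, limma), Fli1 by -0.65, Cldn5 by -0.53, Emcn by -0.51, Kdr by -0.51, Tek by -0.47, and Mmrn1 and Flt1 both by -0.34, whereas Eng, a co-receptor for TGF-beta and BMP ligands, differed by 0.28. The arrays of the ages did not overlap for 3 members (9.09%, against 19.4% of all genes), Kdr and Tek below and Eng above at P5. The intervals of 30 members lay within 2-fold, the exceptions being Cldn5, Aplnr and Fli1, and the median was -0.03, with 0.04 over all genes. Aplnr was called (-0.95) without P1 tail array 5, in a fit whose share of all genes is not given. Cldn5 was called (-0.90) without P5 tail array 2, in a fit that called 4.15% of all genes.

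The site difference at P5 minus that at P1 was called for 0 of 33 members with limma, against 2.87% of all genes. Aplnr had the largest value, -0.98 ± 0.31 (SE; adjusted p = 0.127), and Egfl7 (-0.39) and Mmrn1 (-0.59) were the others of 3 with an unadjusted p under 0.05. That the site difference of Aplnr was larger at P5 than at P1 was therefore not shown. Without P1 tail array 5 its value was -1.22 and was called (adjusted p = 0.0254, limma), in a fit whose share of all genes is not given. Without P5 tail array 2 Mmrn1 was called (-0.81), in a fit that called 3.28% of all genes. Intervals of this comparison are wide, and 23 of 33 lay within 2-fold.

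The 46 other endothelial genes of a list set by name, all measured, held genes that passed the test in each of these comparisons. In tail against back, 3 rose and 4 fell at P1, and 4 rose and 4 fell at P5, where 3.97% and 6.91% of all genes were called. The median differences were 0.05 and -0.14, beside -0.04 and -0.02 over all genes. With age, 3 rose and 4 fell in back, and 2 rose and 6 fell in tail, beside 4.25% and 5.3% of all genes. The lower genes included adhesion proteins by which activated endothelium catches white blood cells, namely E-selectin (Sele) and Vcam1 at both ages and Icam1 at P1, and P-selectin (Selp) fell with age at both sites.

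Sele read -0.04, 0.04 and -0.41 in P1 tail and 1.01, 1.01 and 0.86 in P1 back. At P5 it read -2.14, -1.39 and -1.23 in tail and -0.34, 0.32 and 0.39 in back. All tail arrays lay below all back arrays at both ages, with differences of -1.09 ± 0.24 (SE; adjusted p = 0.0192) and -1.70 ± 0.24 (adjusted p = 0.00081) in limma. Vcam1 read -0.19, -0.28 and -0.45 against 0.96, 0.57 and 0.74 at P1 and -0.44, -0.55 and -0.83 against 0.18, 0.16 and 0.23 at P5. Its differences were -1.07 and -0.79 (adjusted p = 0.00049 and 0.0026, limma), again with no overlap. Icam1 fell in tail at P1 (-1.15, adjusted p = 0.0037, limma), where back read 1.28, 1.55 and 1.29 and tail 0.06, 0.68 and -0.08. From P1 to P5, Icam1 fell by 1.48 and Selp by 0.91 in back, and Sele fell by 1.45 and Selp by 1.01 in tail.

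**Figure D5:**
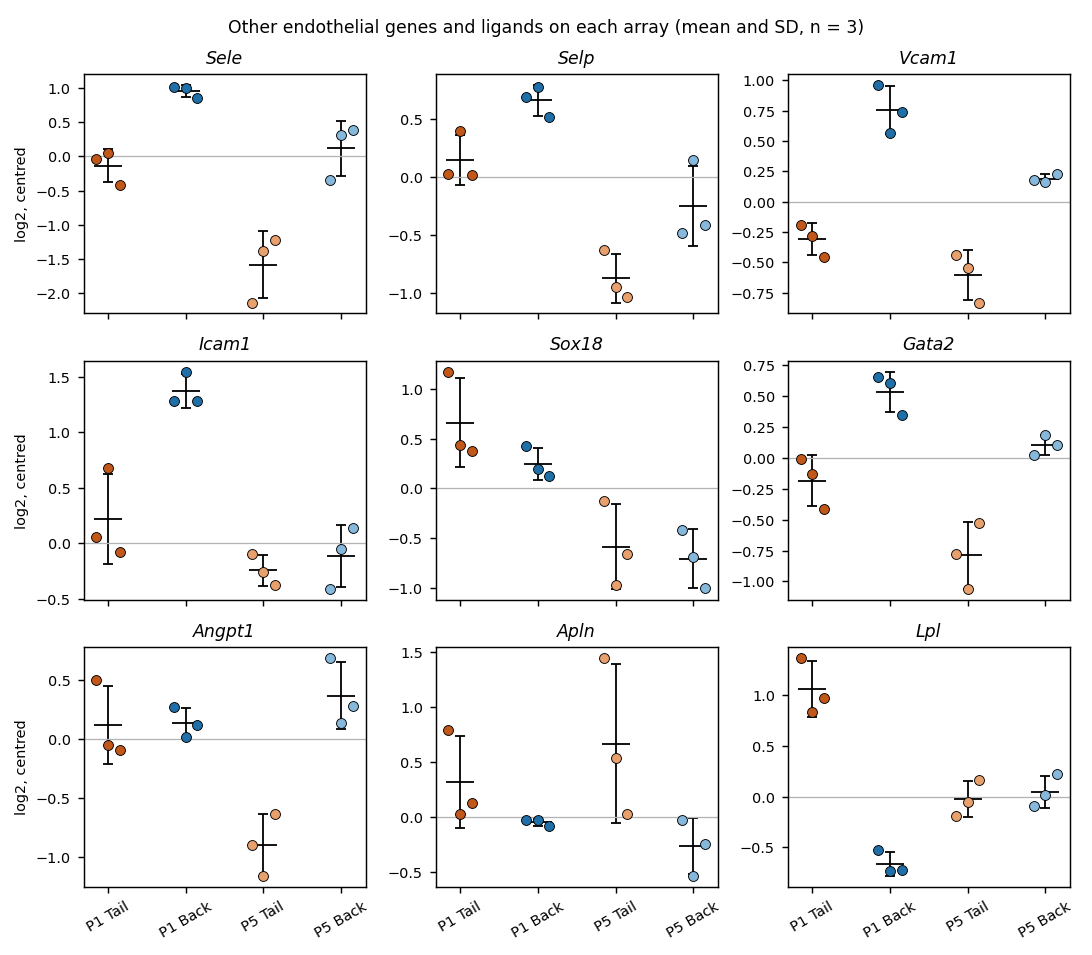
Log2 values (vertical axis, relative to the median of the 12 arrays, each panel on its own scale) of 9 other endothelial genes and ligands on each array (points) with the mean and SD of the group (n = 3). Sele, Vcam1, Gata2 and Selp, the last not called between the sites, have all tail arrays below all back arrays at both ages. Angpt1 does so at P5 alone, Sox18 is below 0 in every P5 array, and Lpl separates the sites at P1 alone.

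The remaining calls in this list were spread over transport, signalling and transcription. Gata2, a factor of vascular and blood cells, was lower in tail at P1 (-0.72) and P5 (-0.89). Car4, a carbonic anhydrase of capillaries, was higher in tail at both ages (2.17 and 0.99) and Cd36, a fatty acid transporter, at P1 (1.61). The Sema3 co-receptor Nrp2 was also higher in tail at P1 (0.74). At P5, Efnb2, a ligand of arterial endothelium, was higher in tail (0.51), as were Palmd (0.90) and Rgcc (0.74), and Procr, the protein C receptor, was lower (-0.89). Procr had risen in back between P1 and P5 by 1.54, as had Cd36 (0.75) and the netrin receptor Unc5b (0.68). Sox18, a factor of early vascular and lymphatic development, fell from P1 to P5 in back (-0.95) and in tail (-1.25), and Hey1, a target of Notch signalling, fell in tail (-0.79). Of the 46 and the 23 ligands and partners below, 5 genes were called in both site comparisons. Car4 was higher in both, and Gata2, Sele, Vcam1 and Vegfa were lower in both. These comparisons share no arrays, but they come from the same fit and share its estimate of the spread of each gene.

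Among 23 ligands and partners of the members, all measured, 1 rose and 3 fell in tail against back at P1, and 2 rose and 2 fell at P5. With age, 1 rose and 2 fell in back, and 1 rose and 4 fell in tail, with the same shares of all genes as above. Vegfa, the ligand of Kdr and Flt1, was lower in tail at P1 (-0.48 ± 0.10 SE, adjusted p = 0.0170, limma) and P5 (-0.37 ± 0.10, adjusted p = 0.0449), and fell with age by 0.53 in back and 0.42 in tail. Angpt1, the activating ligand of Tek, read -0.89, -1.15 and -0.63 in P5 tail, against 0.68, 0.14 and 0.28 in the back arrays. All tail arrays lay below all back arrays, with a difference of -1.26 ± 0.19 (SE; adjusted p = 0.0014, limma), beside the uncalled -0.38 of its receptor. At P1 Angpt1 differed by -0.02. Angpt2, the other ligand of Tek, fell with age in tail by 0.51.

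In the calcitonin family, the partner Ramp3 and the peptide Adm were called, and Calcrl and Ramp2 were not. Ramp3 was higher in P5 tail (1.28 ± 0.19 SE, adjusted p = 0.0013, limma) with 1.72, 0.77 and 0.96 against -0.13, -0.14 and -0.13 in back, and rose with age in tail by 1.08. Its arrays did not overlap between the sites. The receptor Calcrl differed by -0.44 at P5 (adjusted p = 0.080) and the member Ramp2 by 0.13, while Adm was lower in tail at P1 (-0.81) and fell with age in back by 1.10. Among the ligands of lymphatic and other vascular receptors, Vegfc differed by 0.08 at P1 and 0.20 at P5, Vegfb by -0.06 and 0.24, Pgf by -0.33 and -0.28 and the Notch ligand Dll4 by -0.05 and 0.10, none of them called. Ccbe1, which helps process Vegfc, was higher in P5 tail (0.55). Sema3a, a guidance ligand, was lower in P1 tail (-0.85).

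Lpl, the lipase that the member Gpihbp1 anchors in capillaries, read 1.36, 0.83 and 0.98 in P1 tail and -0.53, -0.74 and -0.72 in P1 back. The groups were far apart, with a difference of 1.72 ± 0.15 (SE; adjusted p = 3.2e-05, limma), whereas Gpihbp1 differed by 0.17 (-0.29 to 0.62). Lpl then rose with age by 0.71 in back and fell by 1.09 in tail, and at P5 the site difference was -0.07 (-0.39 to 0.25). Lpl and Cd36 are also made by adipocytes, whose marker list had means of 1.53 and -1.33 in P1 tail and back and 0.28 and -0.24 at P5. The part of that list in these differences was not tested. Nor was that of the dissociation response list, which had a mean of -0.18 in P1 tail and 0.80 in P1 back, with 5 of 12 genes called lower, beside the lower adhesion genes. At P5 that list had means of 0.08 in tail and -0.69 in back, with 5 of 12 genes called higher, and its part there was not tested either.

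These calls outside the members rested on the arrays to different degrees. Leaving out each array of a comparison in turn kept 6 of 11 calls at P1 (Car4, Cd36, Icam1, Lpl, Nrp2 and Vcam1) and 7 of 12 at P5 (Angpt1, Efnb2, Gata2, Palmd, Ramp3, Sele and Vcam1). It kept 3 of 10 with age in back (Adm, Icam1 and Procr) and 7 of 13 with age in tail (Angpt1, Efnb2, Lpl, Ramp3, Sele, Selp and Sox18). The call of Sele at P1 was lost without P1 back array 1, 5 or 6 or P1 tail array 6, and that of Sox18 in back without any of the 6 arrays. That of Vegfa was lost at P1 without P1 back array 1, 5 or 6 or P1 tail array 6, and at P5 without P5 back array 1, 2 or 3 or P5 tail array 2. The methods' t-test, run on the site and age comparisons, called none of these genes after adjustment.

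For the 15 members with several probe sets, the mean hid some differences between probe sets. Probe sets of 1 gene had opposite signs in 5 genes at P1 and in 4 at P5. Flt1, whose shorter transcripts encode a secreted form of the receptor, had the widest spread, with 4 probe sets that differed by 0.19, -0.10, -0.38 and -0.61 between the P5 sites. From P1 to P5 in tail 1 of the 4 was called (-0.79, adjusted p = 0.0274 over all probe sets in limma, which called 3.12% of them), whereas the gene as a mean was not (-0.34). Which transcripts the probe sets read was not analysed here. The probe sets of Prox1 differed by 0.47, 0.23 and -0.11 between the P1 sites.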

How the data were processed

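RNA of dermal cell suspensions was hybridised to 1-colour Affymetrix MG430.2A arrays. The authors normalised them by RMA in GeneSpring, and the deposited values are log2 in scale by that method, centred on the median of each probe set over the 12 arrays (largest remaining median 5e-07). The log base and the centring are not stated with the values, levels are gone, and the methods' filter on the lowest genes could not be applied. The number of arrays limits the precision.

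Of 45101 probe sets 64 controls were left out. The platform annotation gave 34945 probe sets 1 symbol, 932 several and 9160 none here, and probe sets with 1 symbol were averaged into 18193 genes. Array medians ran from -0.0232 to 0.0141. All 33 members matched RefSeq (GRCm38.p6) by gene identifier.

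All 12 arrays were fitted together with limma 3.58.1 (lmFit, eBayes) in R 4.3.3, two-sided, with Benjamini-Hochberg adjustment over all genes and a threshold of 0.05. Intervals are 95%. Comparisons were tail minus back at P1 and P5, P5 minus P1 in back and tail, and the interaction. Alternatives were 1 probe set per gene, shared-sequence probe sets left out, arrays centred, robust variances, array weights, only the arrays compared, the replicate block, each array left out, P1 back arrays 1 and 6 left out (which leaves 1 array there, assumed to vary like the other groups) and the methods' t-test. Leaving out P1 tail array 4 with P5 tail array 2 was added after seeing the data, in which these arrays had the highest member means. On simulated data for tail and back at P1 over 18193 genes, 16 of 50 genes changed by 0.5, 41 of 50 changed by 1 and all 50 changed by 2 were called, as were 8 of 17993 unchanged genes.

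Members and lists were chosen with earlier results of these data known. Values on every array are given for the called member and for Pecam1, Cdh5, Kdr, Flt4, Prox1, Lyve1, Pdpn, Vwf and Emcn, and for Cldn5, Robo4 and Tek after their values were seen. From the other endothelial and ligand lists, up to 6 called genes per list and comparison and the main ligands of the members were named by rule, and further called genes after their values were seen. Of the marker lists, those for fibroblasts, cartilage, skeletal muscle and Schwann cells are given with the closing observations.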

Additional observations from a re-analysis of the deposited data

Results flagged for a closer look

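The site difference, tail minus back by array label, differed between P5 and P1 for 5 endothelial or ligand genes outside the members, by limma's interaction term with adjustment over all genes (2.87% of all genes were called).

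Lpl, the capillary lipase, had a site difference of 1.72 at P1 and -0.07 at P5, an interaction of -1.79 ± 0.21 (SE; adjusted p = 0.00092). Cd36, a fatty acid transporter, had an interaction of -1.41 ± 0.21 (adjusted p = 0.0037). Both calls held without each array in turn. The adipocyte list had the same kind of shift, with 6 of 7 genes called in the interaction.

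Angpt1, the ligand of Tek, had an interaction of -1.24 ± 0.27 (adjusted p = 0.0248), which was lost without P1 back array 5 or 6 or P5 back array 1 or 3. Nrp2, a co-receptor of semaphorins and lymphatic growth factors, had -0.68 ± 0.15 (adjusted p = 0.0260). Ptprb, a phosphatase that acts on Tek and Cdh5, had -0.84 ± 0.20 (adjusted p = 0.0443). The calls of Nrp2 and Ptprb were lost without any of several single arrays.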

How the results depend on the processing

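In total 68 of 80 alternative counts of called members and 74 of 76 alternative medians stayed within 1.5 times the count or the spread between replicates, the medians to within 0.19, and no member or named gene turned its direction where it was called. The counts that moved were as follows. With array weights 3 members were called at P1, in a fit that called 20.1% of all genes. With 1 probe set per gene 1 member (Flt1) was called in the tail age comparison, for which the share of all genes is not given. The methods' t-test called 0 at P5. P1 tail 4 and P5 tail 2, the arrays with the highest member means, were left out together after seeing the data. Then 1 was called at P1 (Cldn5), 7 at P5 with a median of -0.18, 1 with age in tail (Cldn5) and 2 in the interaction (Aplnr and Cldn5). Of all genes that fit called 4.8% at P1, 8.15% at P5, 2.44% with age in tail and 3.07% in the interaction.

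Leaving out single arrays gave 0 calls and medians of -0.14 to 0.13 at P1, and 1 to 2 calls and medians of -0.18 to 0.18 at P5. It gave 0 calls and medians of 0.02 to 0.11 with age in back, 0 to 1 calls and -0.21 to 0.13 with age in tail, and 0 to 1 calls and -0.25 to 0.10 in the interaction. The calls gained were Mmrn1 at P5 and in the interaction and Cldn5 with age in tail, all without P5 tail 2, and Aplnr with age in tail and in the interaction without P1 tail 5. Of all genes, the fit without P5 tail 2 called 7.11% at P5, 3.28% in the interaction and 4.15% with age in tail. The share without P1 tail 5 is not given. The cause was not tested.

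The labels do not state whether replicate numbers pair the arrays. Deviations of arrays with the same number and age correlated by 0.264 and -0.014 at P1 and 0.173 and -0.021 at P5. These few values cannot decide whether such arrays came from 1 mouse. With the replicate block 0 members were called at P1, 1 at P5 (Aplnr) and 0 in the interaction, and of all genes 1.39%, 4.76% and 1.27%. No block was fitted for the age comparisons, where the ages share 1 replicate number or fewer within a site.

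Of 51 calls of other endothelial genes and ligands, 41 held with array weights, 50 with arrays centred and 51 with robust variances. With only the arrays compared 31 of 46 held, and 13 of 28 with the replicate block.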

Other observations

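The other marker lists varied between the arrays as follows. Cartilage genes were high in P1 back arrays 1 and 6 (means 2.69 and 2.23) and P5 back array 3 (1.21), and between -0.54 and 0.20 elsewhere. Skeletal muscle genes ranged from -1.84 in P1 back array 5 to 1.92 in P1 tail array 4. The 8 measured fibroblast genes had means between -0.14 and 0.12 on every array. The 5 measured Schwann cell genes had group means of -0.23 in P1 tail, -0.17 in P1 back, 0.20 in P5 tail and 0.29 in P5 back.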
